A study of Mus musculus with 24 samples.

Results

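Histidine leaves the amino acid pool along a pair of routes, and the genes described here encode the enzymes of both. Hal (histidine ammonia-lyase), Uroc1 (urocanase), Amdhd1 (imidazolonepropionase) and Ftcd (formimidoyltransferase cyclodeaminase) carry histidine stepwise to glutamate, and Hdc (histidine decarboxylase) turns it into histamine. All 5 genes were found by symbol among the 43629 gene identifiers of the deposited table. Hal and Amdhd1 were picked because both stood higher in CITED2-KO than in WT macrophages without treatment. Their values between genotypes are therefore given as a description with no test. Uroc1, Ftcd and Hdc were added as the other enzymes of these routes.

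Bone marrow-derived macrophages (BMDMs), which differentiate in a dish out of marrow cells, were taken from C57BL/6 mice at postnatal week 10. The cells were CITED2-KO (KO below) or Wild Type (WT), and each genotype was given LPS, IFNg or IL4 or was left as control, with 3 libraries in each of 8 groups. CITED2 does not bind DNA itself and acts on transcription through the acetyltransferases CBP and p300. LPS is a bacterial cell wall component sensed by a Toll-like receptor, IFNg is the cytokine of classical macrophage activation, and IL4 is that of alternative activation. How the gene was deleted, whether other alleles were present, and the doses and times of treatment are not given in the sources used here. The same holds for whether replicates were separate animals or cultures, so that the spread behind each p-value is that of these libraries and may be technical.

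In the glutamate route, HAL removes ammonia from histidine to give urocanate, UROC1 hydrates urocanate, AMDHD1 opens the imidazolone ring, and FTCD passes the formimino group to tetrahydrofolate and leaves glutamate. The route is best known from liver, and HAL also acts in the outer skin, where urocanate absorbs ultraviolet light. HDC is the single enzyme that makes histamine in mammals and is best known from mast cells, basophils and acid-regulating cells of the stomach, while macrophages can be induced to express it.

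Values are normalised read counts, that is, reads per gene divided by 1 factor per library. The shallowest library, KO LPS replicate 1, held 1478507 recovered reads and the deepest, WT IFNg replicate 3, 73409343 (median 29551522 over 24 libraries). A single read was worth 23.6 in that shallowest library and at most 4.08 in the others, so low values in KO LPS replicate 1 say little. Cited2 averaged between 11.7 and 48.7 in the 4 KO groups, against 1148 to 3593 in the 4 WT groups, and macrophage markers were high in every library (9 of the 10 listed were in the table and all 9 had reads, with sums from 106876 to 172675). With LPS and IFNg the scaling mattered. The median log2 difference of the tested genes was -0.21 in KO cells with LPS and -0.06 in WT cells with LPS as deposited, and 0.21 and 0.36 once each library was centred on its own median. For IFNg it was -0.08 in KO and 0.00 in WT cells as deposited, and 0.25 and 0.32 after centring. Genes called higher and lower in KO cells with LPS numbered 4571 and 6060 as deposited and 6326 and 3947 after centring, and in WT cells 4759 and 5183 against 6823 and 3065. With IFNg they numbered 4152 and 4420 in KO cells, and 6022 and 2564 after centring, and in WT cells 4201 and 4211, and 6107 and 2515 after centring. Between genotypes the higher and lower calls without treatment were 766 and 568 as deposited and 922 and 369 after centring. With LPS they were 1808 and 2333 as deposited and 2162 and 1554 after centring, and with IFNg 901 and 785 as deposited and 1134 and 442 after centring. When libraries were weighted by their quality, without centring, the calls between genotypes with LPS were 2135 and 1864. The median log2 difference in KO cells with LPS was then -0.08. The balance of calls with LPS thus also depended on how libraries were weighted.

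Hal and Amdhd1 are neighbours on mouse chromosome 10. Hal (ENSMUSG00000020017) lies on the plus strand at chr10:93488768-93519304 of GRCm38, and Amdhd1 (ENSMUSG00000015890) on the minus strand at chr10:93523338-93540033. The genes point at each other, with 4033 bases between their 3' ends, and no annotated gene overlaps either one. Cited2 is on the same chromosome, 75763093 bases before the Hal start. Hdc (ENSMUSG00000027360) lies at chr2:126593667-126619299, Uroc1 (ENSMUSG00000034456) at chr6:90333284-90364551 and Ftcd (ENSMUSG00000001155) at chr10:76575648-76590338. The promoter windows of the 3 genes with measurable levels are shown because Hal and Amdhd1 differed in the same direction between genotypes while the Hdc libraries of both genotypes overlapped without treatment. Each runs from 250 bases before to 50 bases after the RefSeq start on GRCm38.p6, 5′ to 3′ on the gene's own strand, at chr10:93488518-93488817 for Hal, chr10:93539984-93540283 for Amdhd1 and chr2:126618629-126618928 for Hdc. Capitals mark exact matches to a searched motif.
Hal: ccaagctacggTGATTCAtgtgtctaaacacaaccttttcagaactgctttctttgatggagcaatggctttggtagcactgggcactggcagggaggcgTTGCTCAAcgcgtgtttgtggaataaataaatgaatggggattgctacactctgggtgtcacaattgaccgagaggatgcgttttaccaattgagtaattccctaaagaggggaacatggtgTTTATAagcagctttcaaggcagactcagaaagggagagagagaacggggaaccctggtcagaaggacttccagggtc
Amdhd1: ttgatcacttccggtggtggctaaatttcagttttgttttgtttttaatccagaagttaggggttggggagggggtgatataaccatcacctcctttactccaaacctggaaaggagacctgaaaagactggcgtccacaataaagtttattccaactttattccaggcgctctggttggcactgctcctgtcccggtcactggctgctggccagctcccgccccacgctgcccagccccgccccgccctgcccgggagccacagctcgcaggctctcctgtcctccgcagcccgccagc
Hdc: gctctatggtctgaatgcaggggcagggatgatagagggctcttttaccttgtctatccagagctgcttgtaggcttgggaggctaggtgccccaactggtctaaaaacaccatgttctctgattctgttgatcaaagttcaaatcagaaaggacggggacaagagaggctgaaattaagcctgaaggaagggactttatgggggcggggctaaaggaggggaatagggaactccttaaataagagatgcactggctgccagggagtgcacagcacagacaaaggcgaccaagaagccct

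A set of 8 short motifs was searched on both strands. The C/EBP type was TTGCNNAA, the STAT type TTCNNNGAA, and the STAT6 type the same with 1 more N. The PU.1 type was GAGGAAGT. The E-box was CACGTG. The TATA box was TATAAA. The AP-1 type (the TPA response element, with any base at its centre) and the interferon response type (the interferon-stimulated response element core) were searched by their usual consensus. The Hal window held 3 of the 8 motifs. The AP-1 type match began at -239 and the C/EBP type match at -150 relative to the start, and the TATA box letters were found on the opposite strand from -28. Of 32851 mouse promoter windows of this length, 7.81% held the AP-1 type letters, 10.8% the C/EBP type letters and 13.6% the TATA box letters. The other shares were 6.95% for the STAT6 type, 8.3% for the STAT type, 3.2% for the PU.1 type, 7.15% for the E-box and 3.44% for the interferon response type, and none of these matched in the Hal window. No searched letters occurred in the Amdhd1, Hdc or Uroc1 window, and the Ftcd window held the TATA box letters from -29. GC content was 47.7% in the Hal window, 57.0% in the Amdhd1 window and 50.7% in the Hdc window, with a median of 52.7% over all windows. The Hal and Amdhd1 windows thus had none of the searched motifs in common, which says only that these letters are not in these windows.

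Hal, the entry enzyme of the glutamate route, was abundant in KO macrophages and low in WT macrophages under all 4 conditions. Without treatment it had 1886, 1989.6 and 1812 normalised counts in the KO libraries, against 11.3, 12.3 and 7.33 in the WT libraries. With LPS the KO libraries had 756, 1213 and 1203, against 8.15, 13.3 and 13.1 in the WT libraries. The lowest of the KO LPS values, still far above every WT value, came from the shallowest library and rested on 32 reads. With IFNg the KO libraries had 415, 384 and 442, against 5.38, 5.13 and 1.42 in the WT libraries. With IL4 they had 522, 503 and 576, against 6.34, 5.15 and 12.2 in the WT libraries. The genotypes did not overlap under any condition, and the lowest KO library (384, IFNg) stood above the highest WT library (13.3, LPS).

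As group means, Hal stood at 1896 ± 89.3 in KO control and 10.3 ± 2.62 in WT control cells (SD, n = 3 each), a ratio of 184. For LPS, IFNg and IL4 the ratios of means were 91.8, 104 and 67.5, and the one for LPS was 105 without KO LPS replicate 1. All 3 WT control libraries together held 43 Hal reads, so the ratio rests on a low denominator. The ratio of pooled normalised counts without treatment was 168, with an exact 95% interval of 124 to 232 that covers counting error only. On the scale of log2(value + 1) the KO minus WT difference was 7.42 without treatment, 6.40 with LPS, 6.504 with IFNg and 5.99 with IL4. Of all tested genes, 7.16% were called between the genotypes without treatment, 22.2% with LPS, 9.05% with IFNg and 9.29% with IL4, and since Hal was picked on this contrast nothing is read from the comparison. In these bulk samples, a change in the number of cells that express a gene and a change in RNA per cell cannot be told apart.

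**Figure D1:**
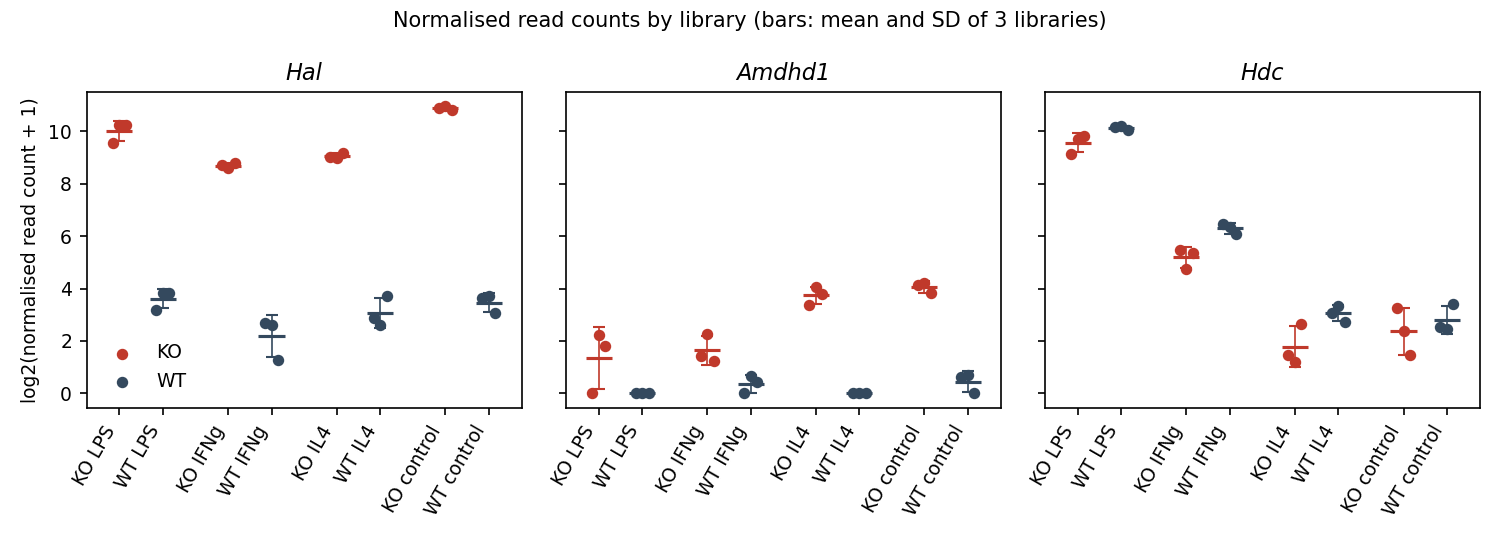
Normalised read counts of Hal, Amdhd1 and Hdc in each of the 24 libraries, on the scale of log2(value + 1), by group; points are libraries, and bars give the mean and SD of the 3 libraries on that scale. Hal is high in all 12 KO libraries and low in all 12 WT libraries, Amdhd1 is low throughout and highest in KO control and KO IL4 cells, and Hdc is high with LPS in both genotypes.

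Relative to all tested genes with an annotated length, Hal ranked among the better expressed genes in KO cells. Per kilobase of exon, its mean level was 342 in KO control cells, rank 2439 of 18483, against 1.86 in WT control cells, rank 13334. In the treated KO groups it ranked 4392 with LPS, 6829 with IFNg and 6279 with IL4. Markers of the tissues best known for Hal were at or near 0 beside these levels. Of 6 hepatocyte markers (Alb, Apoa1, Ttr, Serpina1a, Cyp2e1 and Ahsg) none had a read in KO control or WT control cells, and their summed level was at most 1.06 in any KO library. Of 6 keratinocyte markers only Krt10 had reads, at 19.6 ± 4.93 in KO control and 20.1 ± 7.91 in WT control cells, and Krt5, Krt14, Krt1, Flg and Lor were at 0 in every group.

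Within KO macrophages, all 3 stimuli went with less Hal. The treated KO libraries lay below the KO control libraries without overlap, at 1057 ± 261 with LPS, 413 ± 29.1 with IFNg and 534 ± 37.9 with IL4, against 1896 ± 89.3 in KO control cells (SD, n = 3 each). These levels were 55.8%, 21.8% and 28.2% of the KO control mean. By limma with Benjamini-Hochberg adjustment over 18637 genes, Hal fell by 2.196 ± 0.318 with IFNg (log2 ± SE, adjusted p = 2.6e-06). With IL4 it fell by 1.83 ± 0.32 (adjusted p = 8.5e-05), and both falls were seen in 3 of 3 libraries. The difference with LPS was -0.87 ± 0.32 (adjusted p = 0.022), and its call did not hold under every setting. It was -0.46 with an adjusted p of 0.25 once libraries were centred on their median, -0.67 with 0.097 when libraries were weighted by their quality, and -0.65 with 0.093 without KO LPS replicate 1. Without KO control replicate 1 or 2 its adjusted p was 0.051 and 0.061, and over all alternatives it ranged from 1.3e-09 to 0.25. The KO control libraries used here also entered the comparison on which Hal was picked, so that a high KO control value favours a fall with any treatment.

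In WT macrophages Hal passed the test with IFNg and with neither of the other stimuli. It averaged 3.98 ± 2.22 with IFNg, against 10.3 ± 2.62 in WT control cells, with no overlap between the groups (SD, n = 3 each). The groups held 19 and 43 Hal reads, and the difference was -1.28 ± 0.32 (log2 ± SE, limma, adjusted p = 0.0016). Across the alternatives the adjusted p of this fall ranged from 1.3e-06 to 0.023. With LPS the WT libraries averaged 11.5 ± 2.91 and with IL4 7.91 ± 3.80, and both groups overlapped the WT control libraries (adjusted p = 0.74 and 0.50). The size of the Hal response in KO and in WT cells was not compared by a test, because that difference contains the genotype contrast on which the gene was picked.

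**Figure D2:**
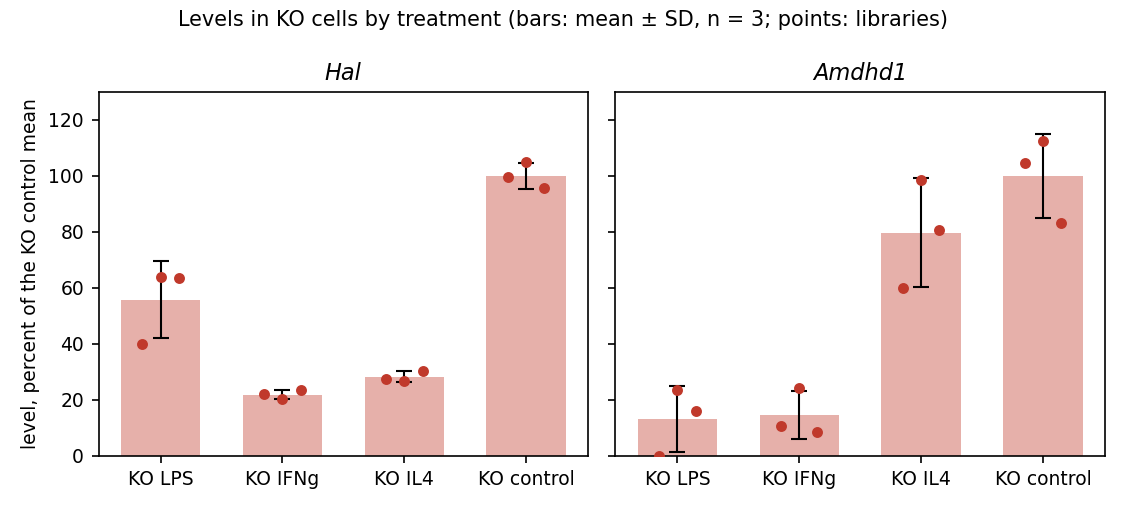
Levels of Hal and Amdhd1 in KO cells as a percentage of the KO control mean; bars and error bars give mean and SD of 3 libraries, and points are libraries. Hal is at 21.8% of KO control with IFNg and 28.2% with IL4, whereas Amdhd1 is at 14.5% with IFNg but 79.7% with IL4.

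Uroc1, the second enzyme of the glutamate route, was not detected in KO macrophages. None of the 12 KO libraries held a read of it, and among the 12 WT libraries only WT IFNg replicate 3, the deepest of the series, did, with 2 reads and a normalised count of 0.711. With no read in a group, 3 reads over its libraries mark the floor, which was 0.805 in KO control, 1.22 in KO LPS, 1.03 in KO IFNg and 0.72 in KO IL4 cells. Uroc1 did not pass the filter on low values and was not tested.

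Amdhd1, the third enzyme, was present at low levels in KO macrophages and nearly absent from WT libraries. Without treatment it had 16.5, 17.8 and 13.2 normalised counts in the KO libraries, from 27, 17 and 15 reads, against 0.539, 0.645 and 0 in the WT libraries, from 1, 1 and 0 reads. With IL4 the KO libraries had 9.46, 15.6 and 12.8, against 0 in each WT library. With IFNg they had 1.69, 3.84 and 1.34, from 1, 6 and 1 reads, against 0, 0.57 and 0.355 in the WT libraries, from 0, 1 and 1 reads. With LPS they had 0, 3.69 and 2.50, against 0 in each WT library. KO and WT libraries did not overlap without treatment or with IL4. The IFNg values did not overlap either, but KO IFNg replicates 1 and 3 and WT IFNg replicates 2 and 3 held 1 read each. Their values differed only in what 1 read was worth in each library. The genotypes met at 0 with LPS, where the KO library at 0 was the shallow replicate 1, in which a single read would have been worth 23.6.

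The group means of Amdhd1 were 15.8 ± 2.39 in KO control and 0.395 ± 0.346 in WT control cells (SD, n = 3 each). Pooled over the libraries, 59 reads stood against 2, a ratio of normalised counts of 30.2 with an exact 95% counting interval of 7.99 to 255. With IFNg 8 reads stood against 2, a ratio of 7.84 with an interval of 1.56 to 75.7. With IL4 52 reads stood against 0, and with LPS 8 against 0. The exact 95% lower limit of the pooled ratio was 14.8 with IL4 and 1.84 with LPS. As for Hal, these genotype values are a description.

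Treatment moved Amdhd1 in KO cells with 2 of the 3 stimuli. It was at 13.0% of the KO control mean with LPS and at 14.5% with IFNg, without overlap with the KO control libraries. The differences were -2.72 ± 0.47 with LPS (log2 ± SE, limma, adjusted p = 2.4e-05) and -2.42 ± 0.47 with IFNg (adjusted p = 1.4e-04). Without KO LPS replicate 1 the LPS level was 19.6% of KO control and the difference -2.04, with an adjusted p of 1.5e-04. With IL4 Amdhd1 was at 79.7% of KO control, the libraries overlapped, and the difference of -0.32 ± 0.47 did not pass the test (adjusted p = 0.75). In WT cells 4 Amdhd1 reads were found in all, and the gene passed the filter on low values through KO libraries alone. Its treatment differences in WT cells could therefore hardly pass (limma, adjusted p from 0.47 to 0.92), and nothing is read from them. The caution on shared KO control libraries holds here as it does for Hal.

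Ftcd, the last enzyme of the glutamate route, had no read in any of the 24 libraries. The floor of 3 reads ranged from 1.07 normalised counts in the deepest library to 70.9 in KO LPS replicate 1. Of the 4 genes from histidine to glutamate, KO macrophages thus held reads of Hal and Amdhd1 and none of Uroc1 or Ftcd.

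The balance of Hal and Amdhd1 reads differed between the KO groups, toward Amdhd1 with IL4 and toward Hal with LPS. Amdhd1 made up 2.31% of the reads of both genes in KO IL4 cells (exact binomial 95% interval 1.73 to 3.02), against 0.83% in KO control cells (0.633 to 1.07). The share was 0.269% (0.116 to 0.53) in KO LPS and 0.676% (0.292 to 1.33) in KO IFNg cells. These intervals cover counting error only, and the LPS share rests on 8 Amdhd1 reads. The IL4 interval lies above the KO control interval and the LPS interval below it, and the IFNg interval overlaps that of KO control. Per kilobase of exon, the Amdhd1 reads pooled over a group were 5.42% of the pooled Hal reads in KO IL4, 0.618% in KO LPS, 1.56% in KO IFNg and 1.92% in KO control cells.

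Hdc, which makes histamine, behaved differently from both. It was low in control cells, rose strongly with LPS and moderately with IFNg in both genotypes, and did not respond detectably to IL4. With LPS it had 567, 845 and 914 normalised counts in the KO libraries, against 1154, 1169 and 1076 in the WT libraries. With IFNg the KO libraries had 44.0, 25.6 and 40.2, against 87.9, 80.9 and 66.1 in the WT libraries. With IL4 they had 1.77, 1.30 and 5.32, against 7.49, 9.15 and 5.65 in the WT libraries. Without treatment they had 8.58, 4.18 and 1.75, against 4.85, 4.51 and 9.77 in the WT libraries. KO libraries lay below WT libraries in all 3 treated conditions, and the genotypes overlapped without treatment. With IL4 this rested on 10 reads in KO and 35 in WT cells. How many of all tested genes were separated in this way was not counted, so the separation alone is not read as a result.

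In KO cells Hdc averaged 775 ± 184 with LPS and 36.6 ± 9.74 with IFNg, against 4.84 ± 3.46 in KO control cells (SD, n = 3 each). In WT cells it averaged 1133 ± 50.01 with LPS and 78.3 ± 11.1 with IFNg, against 6.38 ± 2.94 in WT control cells. The rise with LPS was 7.21 ± 0.41 in KO and 7.33 ± 0.41 in WT cells (log2 ± SE, limma, adjusted p = 1.3e-13 and 1e-13). With IFNg the rise was 2.83 ± 0.41 in KO and 3.49 ± 0.41 in WT cells (adjusted p = 3e-06 and 1.2e-07), in 3 of 3 libraries each. With IL4 the differences were -0.59 ± 0.41 in KO and 0.24 ± 0.41 in WT cells (adjusted p = 0.39 and 0.82). Counting all tested members, Hal, Amdhd1 and Hdc, 3 of 3 were called in KO cells with LPS beside 57.0% of all tested genes, 3 of 3 with IFNg beside 46.0%, and 1 of 3 with IL4 beside 23.2%. In WT cells 1 of 3 was called with LPS beside 53.3% of all genes and 2 of 3 with IFNg beside 45.1%. With IL4 none of the 3 was called in WT cells by limma, where 20.1% of all genes were, and none had an unadjusted p below 0.05 or was called by edgeR or DESeq2. Amdhd1 was at most 0.645 in any WT library and passed the filter through KO libraries alone. It could hardly be called in WT cells, so the WT counts rest on Hal and Hdc and are not read against these shares. Hal and Amdhd1 were picked because they stood higher in KO control than in WT control cells, and KO control is the baseline of the KO calls. The KO counts are therefore not read against these shares either.

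The Hdc level in KO cells was 68.4% of the WT level with LPS, 46.7% with IFNg and 37.7% with IL4, and 75.8% without treatment. Leaving out 1 library moved the share to between 62.3% and 77.6% with LPS and between 42.0% and 53.8% with IFNg. With IL4 the share lay between 20.7% (without KO IL4 replicate 3) and 47.7% (without KO IL4 replicate 2). Without treatment it lay between 46.5% (without KO control replicate 1) and 103% (without WT control replicate 3). On the log2 scale the KO minus WT differences were -0.58, -1.10, -1.28 and -0.45 in the same order, and the last of these, without treatment, was 0.19 when libraries were weighted. None of the 4 passed by limma, where 22.2%, 9.05%, 9.29% and 7.16% of all tested genes were called (adjusted p = 0.36 with LPS, 0.12 with IFNg, 0.055 with IL4 and 0.78 without treatment). The difference was called by both edgeR and DESeq2 in each treated condition, and over the alternatives the adjusted p ranged from 0.0081 to 0.64 with LPS, 9.8e-07 to 0.35 with IFNg, 0.01 to 0.22 with IL4 and 0.35 to 1.0 without treatment. Whether the treatment response of Hdc differed between genotypes was tested directly, and none of the 3 interactions passed. They were -0.13 ± 0.59 with LPS (log2 ± SE, limma, adjusted p = 0.94), -0.65 ± 0.59 with IFNg (adjusted p = 0.92). The IL4 term was -0.83 ± 0.59 (adjusted p = 0.69). Of all tested genes, 8.79%, 2.5% and 3.61% had such an interaction with LPS, IFNg and IL4.

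**Figure D3:**
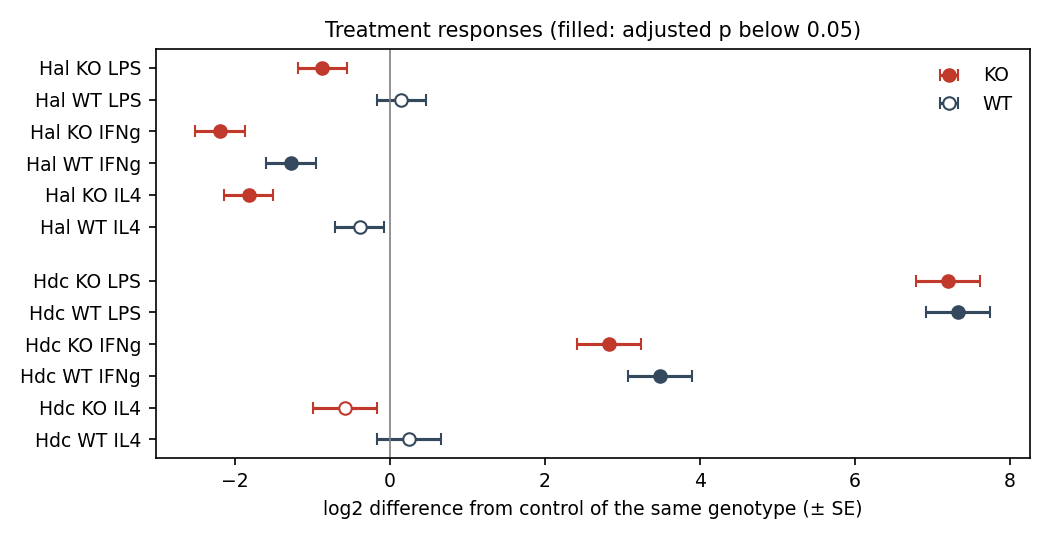
Log2 differences of Hal and Hdc between treated and control libraries of the same genotype, on the scale of log2(value + 1) with standard errors from limma; filled points passed an adjusted p of 0.05. Hdc rises with LPS by 7.21 in KO and 7.33 in WT cells, while Hal falls with all 3 stimuli in KO cells and with IFNg in WT cells. The call of the Hal fall with LPS in KO cells did not hold under every setting.

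Markers of other cells that make histamine were followed beside Hdc. Of 11 mast cell and basophil markers, between 6 and 8 had reads in each group, and the mast cell proteases Tpsb2 and Mcpt4 were at 0 in all 8 groups. The summed level of the list, most of it Kit, was 94.5 to 144 with LPS in KO cells and 145 to 188 in WT cells, below the 346 to 368 of KO control and 359 to 386 of WT control cells. The basophil protease Prss34 was at 2.47 ± 2.46 in KO LPS and 14.5 ± 1.98 in WT LPS cells, and at 3.14 ± 2.82 in KO IFNg and 9.41 ± 0.40 in WT IFNg cells. Mcpt8, another basophil protease, was at 1.20 ± 1.05 in KO IFNg and 7.82 ± 3.39 in WT IFNg cells. Prss34 and Mcpt8 were picked out after their values were seen, and no response to treatment is read from them. Of 9 neutrophil markers, between 7 and 9 had reads in each group, and Ly6g was at 0 in 7 of the groups. The sum of these markers was 2443 to 2575 in KO LPS and 2185 to 2571 in WT LPS cells. It was 1151 to 1270 in KO control and 1275 to 1512 in WT control cells. The sum over all genes was also larger with LPS. It was 34930113 to 37512449 in KO LPS and 31791425 to 33267115 in WT LPS libraries. In control libraries it was 19908126 to 20003481 in KO and 18992840 to 19182569 in WT cells. The part of basophil and neutrophil transcripts in the Hdc levels was not tested.

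Genes around Hal and Amdhd1 were examined for differences of similar size. Of the 10 nearest protein-coding genes on either side 18 of 20 could be tested, and without treatment their KO minus WT differences ranged from -0.48 to 0.39 on the log2 scale. Among them 1 was called higher and 1 lower in KO cells, beside 7.16% of all tested genes. Lta4h, which encodes leukotriene A4 hydrolase and ends 3892 bases before the Hal start, was at 1942 ± 19.7 in KO control and 1661 ± 83.2 in WT control cells (log2 difference 0.23 ± 0.06, limma, adjusted p = 0.028). Leaving out any 1 of 5 libraries (each KO control library, or WT control replicate 2 or 3) ended that call, with adjusted p from 0.072 to 0.13. Elk3, an ETS family transcription factor gene, was at 591 ± 7.09 in KO control and 826 ± 5.99 in WT control cells (log2 difference -0.48 ± 0.07, adjusted p = 3.4e-05). Ccdc38, the nearest gene beyond Amdhd1, had 0.204 ± 0.354 in KO control cells and no read in WT control cells. With LPS 5 of the 18 were called higher and none lower, beside 22.2% of all tested genes, and with IL4 1 higher and 1 lower, beside 9.29%, so that neither count stands far from the share over all genes. With IFNg none was called by limma or edgeR, where 2 had an unadjusted p below 0.05.

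**Figure D4:**
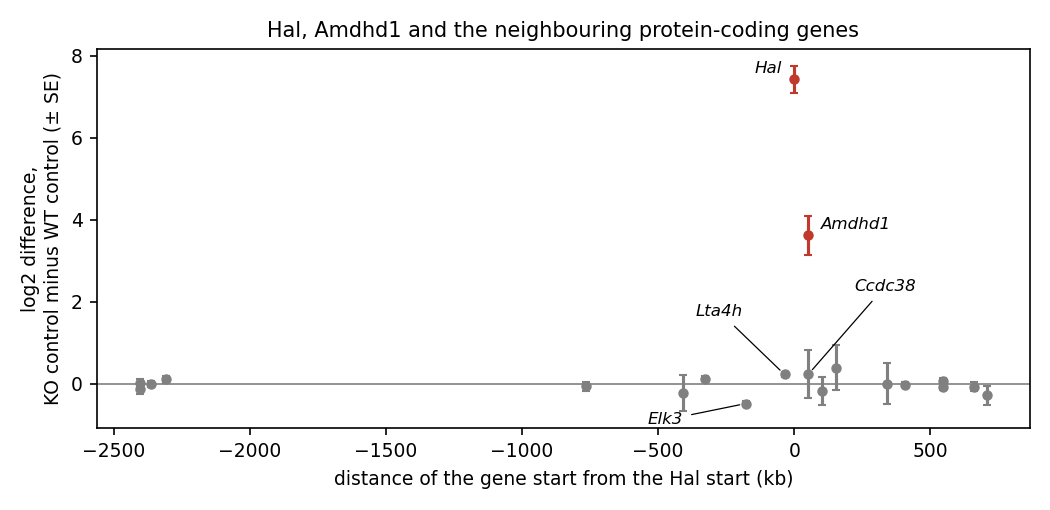
KO minus WT log2 difference without treatment (scale of log2(value + 1), ± SE from limma) for Hal, Amdhd1 and the 18 tested protein-coding neighbours, against the distance of each gene's start from the Hal start in kilobases. Hal at 7.42 and Amdhd1 at 3.62 stand above the neighbours, which lie between -0.48 and 0.39.

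Over the 24 libraries, the 5 genes whose log2 levels followed Hal most closely among 11986 genes with a mean of at least 10 lay on other chromosomes. They were Gm15920, a processed pseudogene on chromosome 5 (Pearson r = 0.96), Rpl29, a ribosomal protein gene on chromosome 9 (0.96), Gm26862, a transcript annotated as sense-overlapping on chromosome 7 (0.95), Phyhip on chromosome 14 (0.95) and Glb1, lysosomal beta-galactosidase, on chromosome 9 (0.93). All of these points share the split between 12 KO and 12 WT libraries, so each r mainly restates a genotype difference and has no p. Gm15920 was at 67.3 ± 9.42 in KO control cells and had no read in WT control cells. Rpl29 was at 73.1 ± 10.99 in KO control and 5.90 ± 2.77 in WT control cells, and as a member of a family with many processed copies its count is uncertain. Glb1 was at 1570 ± 80.0 in KO control and 739 ± 39.7 in WT control cells. In KO IFNg cells, where Hal was at 21.8% of KO control, Gm15920 was at 73.7 ± 12.03, Rpl29 at 62.6 ± 3.10 and Glb1 at 1606 ± 101. The genes closest to Hdc were Ep400, a chromatin remodelling ATPase gene (r = 0.99), Lcp1, the actin-bundling plastin of leukocytes (0.98), Cyfip1 (0.98), the non-coding AI504432 (0.98) and Gas7 (0.98). These r values in turn follow the differences between treatment groups, have no p, and do not measure the size of a change. Ep400 was at 3794 ± 361 in KO LPS and 4381 ± 195 in WT LPS cells, against 1708 ± 49.6 in KO control and 1763 ± 14.7 in WT control cells. AI504432 was at 3131 ± 237 in KO LPS and 3918 ± 619 in WT LPS cells, against 89.5 ± 17.4 in KO control and 143 ± 3.01 in WT control cells.

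Carriers that bring histidine into cells or out of lysosomes differed between genotypes in both directions. Of 10 listed genes 8 could be tested, and without treatment 1 was called higher and 2 lower in KO cells. Slc15a3, a lysosomal carrier of histidine and small peptides, was at 12063 ± 566 in KO control and 6343 ± 487 in WT control cells (log2 difference 0.93 ± 0.06, limma, adjusted p = 1.9e-11). Slc7a8, a neutral amino acid exchanger, was at 853 ± 73.2 in KO control and 1171 ± 136 in WT control cells (-0.45 ± 0.07, adjusted p = 1.4e-04). In the treated conditions 2 were higher and 4 lower in KO cells with LPS, where 22.2% of all tested genes were called, 3 higher and none lower with IFNg, beside 9.05%, and 2 higher and none lower with IL4, beside 9.29%. Without treatment the share of all tested genes was 7.16%. Slc7a5, the light chain of the large neutral amino acid carrier, rose with IFNg to 1011 ± 67.0 in KO cells, against 57.1 ± 5.65 in KO control cells, and to 761 ± 33.6 in WT cells, against 59.4 ± 6.11 in WT control cells (log2 4.12 ± 0.14 and 3.66 ± 0.14, adjusted p = 9e-18 and 9.8e-17). With LPS it was lower in KO than in WT cells, at 645 ± 172 and 977 ± 69.3 (-0.63 ± 0.14, adjusted p = 0.0022).

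Genes that use histidine in other ways, among them the histidyl-tRNA synthetases Hars and Hars2 and the carnosine dipeptidase Cndp2, gave no call between genotypes by limma. None of the 7 tested was called under any of the 4 conditions, and 0, 3, 1 and 0 of them had an unadjusted p below 0.05 in control, LPS, IFNg and IL4 cells. In the same order limma called 7.16%, 22.2%, 9.05% and 9.29% of all tested genes. By edgeR 1 was called without treatment and none in the other conditions. A single gene was called with IFNg after centring on the library median, and 1 with LPS without KO LPS replicate 1.

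Downstream of Hdc, of 8 tested genes that inactivate, carry or sense histamine, 2 rose and 2 fell with IFNg in KO cells, where 46.0% of all tested genes were called, and 1 rose and 2 fell in WT cells, where 45.1% were. Hnmt, the methyltransferase that inactivates histamine in cells, fell with IFNg to 117 ± 18.9 in KO cells, against 704 ± 48.6 in KO control cells, and to 104 ± 20.9 in WT cells, against 737 ± 37.1 in WT control cells (log2 -2.59 ± 0.16 and -2.83 ± 0.16, limma, adjusted p = 8.1e-13 and 1.4e-13). The histamine receptor gene Hrh2 rose with IFNg to 85.6 ± 12.7 in KO cells, against 1.86 ± 1.65 in KO control cells, and to 180 ± 4.01 in WT cells, against 2.33 ± 2.04 in WT control cells (5.15 ± 0.91 and 6.06 ± 0.91, adjusted p = 4.1e-05 and 4.5e-06). Between genotypes, of 8 tested genes of this list 1 was lower and none higher in KO cells in each of control, LPS and IFNg cells, and none was called with IL4 by limma or edgeR, with none at an unadjusted p below 0.05. Among all tested genes limma called 7.16% in control, 22.2% in LPS, 9.05% in IFNg and 9.29% in IL4 cells. Maoa, a monoamine oxidase gene, was the one called without treatment, at 1651 ± 73.1 in KO control and 2114 ± 118 in WT control cells (-0.36 ± 0.08, adjusted p = 0.0035). After centring on the library median its adjusted p was 0.062. Hrh2 with LPS, at 25.5 ± 23.1 in KO and 80.4 ± 4.86 in WT cells (-2.83 ± 0.91, adjusted p = 0.027), lost its call without KO LPS replicate 1 (-1.07, adjusted p = 0.19) and without any 1 of the WT LPS libraries (adjusted p from 0.055 to 0.073).

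At the other end of the glutamate route, some folate and glutamate genes differed between genotypes, and limma called the most with LPS. Of 20 one-carbon folate genes, 1 was called higher and 2 lower in KO cells without treatment, none higher and 7 lower with LPS, none higher and 2 lower with IFNg, and 2 higher and none lower with IL4. Of all tested genes, 7.16% were called without treatment, 22.2% with LPS, 9.05% with IFNg and 9.29% with IL4. Aldh1l1, which oxidises formyl-tetrahydrofolate, was at 190 ± 20.9 in KO control and 300.4 ± 24.4 in WT control cells (-0.66 ± 0.13, limma, adjusted p = 0.0015). Mthfd1l, a mitochondrial folate enzyme, was at 162 ± 5.95 in KO LPS and 294 ± 12.8 in WT LPS cells (-0.86 ± 0.11, adjusted p = 1.6e-06). Slc19a1, the reduced folate carrier, was at 23.6 ± 20.8 in KO LPS and 62.3 ± 18.5 in WT LPS cells (-2.49 ± 0.76, adjusted p = 0.02). Without KO LPS replicate 1 its difference was -0.76 (adjusted p = 0.012), and without WT LPS replicate 1 or 2 its adjusted p was 0.072 and 0.058. After centring on the library median 4 rather than 7 folate genes were called lower with LPS. Of 12 glutamate enzyme genes, 1 was called without treatment, Asns, the asparagine synthetase, at 219 ± 6.65 in KO control and 384 ± 1.91 in WT control cells (-0.81 ± 0.08, adjusted p = 1.4e-07). With LPS limma called 3 lower in KO cells, and edgeR called 1 lower. Aldh18a1, which starts proline synthesis from glutamate, was at 166 ± 83.0 in KO LPS and 358 ± 42.6 in WT LPS cells (-1.26 ± 0.24, adjusted p = 0.00043), and its difference was -0.73 without KO LPS replicate 1. Gpt, an alanine aminotransferase, was at 20.5 ± 17.99 in KO LPS and 42.7 ± 9.77 in WT LPS cells (-2.11 ± 0.74, adjusted p = 0.042). Leaving out KO LPS replicate 1 ended its call (-0.45, adjusted p = 0.17), as did leaving out any 1 WT LPS library (adjusted p between 0.067 and 0.12), and neither edgeR nor DESeq2 called it (adjusted p = 0.44 and 0.42). With IFNg and IL4 limma called none (4 and 1 had an unadjusted p below 0.05), while edgeR called 2 and 1 higher.

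Of 28 listed breakdown enzymes of other amino acids 20 could be tested, and without treatment 1 was called higher and 1 lower in KO cells, with log2 differences from -1.68 to 0.92 over the list. Fah, the last enzyme of tyrosine breakdown, was at 134 ± 8.73 in KO control and 70.3 ± 8.60 in WT control cells (log2 difference 0.92 ± 0.26, limma, adjusted p = 0.027), with adjusted p from 0.051 to 0.13 when any 1 of 6 control libraries was left out. Kmo, kynurenine monooxygenase of tryptophan breakdown, was the one called lower (-1.68, adjusted p = 0.045), and its adjusted p was between 0.053 and 0.26 without any 1 of 5 control libraries (each KO control library, or WT control replicate 1 or 2). Fah was also higher in KO cells in the IFNg comparison (1.16 ± 0.26, adjusted p = 0.0037) and in the IL4 comparison (1.28 ± 0.26, adjusted p = 0.0013). With LPS 3 were higher and 6 lower in KO cells, with IFNg 1 higher and 3 lower, and with IL4 1 higher and none lower. The shares of all tested genes called were 7.16% without treatment, 22.2% with LPS, 9.05% with IFNg and 9.29% with IL4. Cth, which makes cysteine from cystathionine, was at 8.27 ± 7.25 in KO LPS and 39.8 ± 2.73 in WT LPS cells (-2.86 ± 0.84, adjusted p = 0.016, and 0.11 without KO LPS replicate 1). Kynu, the kynureninase of tryptophan breakdown, was at 83.8 ± 29.8 in KO LPS and 22.6 ± 14.4 in WT LPS cells (2.02 ± 0.37, adjusted p = 2.5e-04).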

How the data were processed

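RNA was measured in 24 libraries of total RNA from bone marrow-derived macrophages, 3 in each of 8 groups set by genotype and treatment in the labels. The deposited table gives 1 signal value per gene and library. In each library 100% of the nonzero values were whole multiples of 1 step within 0.05 reads, so the authors' values are read counts divided by 1 factor per library, and reads were recovered from that step. Builds mm10 and the tools TopHat2 2.2.1, Cufflinks 2.2.1 and Cuffdiff are named in the submitters' processing notes. The counting tool, its strand setting and the way the factors were set are not given in the sources used here. Without a known strand setting, reads of overlapping antisense transcripts cannot be told apart.

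Tests covered genes that reached 1 in 3 or more libraries (18637 of 43629, among them Hal, Amdhd1 and Hdc). limma 3.58.1 in R 4.3.3 was fitted to log2(value + 1) over all 24 libraries, with 1 mean per group, a trend in the variance and Benjamini-Hochberg adjustment over all tested genes, and calls at an adjusted p below 0.05. On this scale the change of low genes is understated. edgeR 4.0.16 and DESeq2 1.42.0 on recovered reads, other pseudocounts, no filter, median centring, library weights, a replicate block and leaving out each library were alternatives. Counting intervals are exact at 95% and cover counting error only, and the floor of a group without reads is 3 reads over its libraries. Gene positions and lengths are those of GENCODE M21 (GRCm38), where 42548 of the 43629 identifiers were found, and promoter windows those of RefSeq (GRCm38.p6). The members and gene lists were chosen with earlier results of these data known. Named were, by rule, the members, the neighbours called without treatment, the 5 genes most like Hal and the 5 most like Hdc, and from each list the called genes with the largest log2 differences in a comparison (at most 2), of which the text gives a selection. Ccdc38, Slc15a4 and the basophil genes Prss34 and Mcpt8 were picked out after their values were seen, as were some further conditions of list genes the rule named. Tests of Hdc between genotypes were first planned as a description and are quoted because Hdc was not picked on that contrast.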

Additional observations from a re-analysis of the deposited data

Results flagged for a closer look

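Among the histidine carriers, 7 treatment responses differed between genotypes by a test of the difference itself (limma interaction terms, Benjamini-Hochberg adjustment). For Slc15a3 the KO response minus the WT response was -0.81 for LPS (log2, adjusted p = 1.3e-07). It was -0.57 for IFNg (adjusted p = 6e-05) and -0.66 for IL4 (adjusted p = 2.6e-06). Slc15a3 rose with LPS by 2.08 in KO and 2.89 in WT cells, with IFNg by 1.13 in KO and 1.69 in WT cells, and with IL4 by 0.31 in KO and 0.98 in WT cells, and its KO control level was higher than its WT control level. For Slc38a2, a neutral amino acid carrier, the difference was 0.45 with LPS (adjusted p = 0.00095) and 0.45 with IFNg (adjusted p = 0.0025). Its levels were 8036 ± 346 in KO LPS and 6636 ± 360 in WT LPS cells, 9087 ± 564 in KO IFNg and 7508 ± 182 in WT IFNg cells, and 4781 ± 436 in KO control and 5383 ± 128 in WT control cells (SD, n = 3 each). For Slc15a4, another lysosomal histidine carrier, the difference with LPS was -0.41 (adjusted p = 0.017). Slc15a4 fell to 766 ± 111 in KO LPS cells, against 2144 ± 32.7 in KO control cells, and to 1044 ± 45.7 in WT LPS cells, against 2218 ± 144 in WT control cells. Median centring and leaving out WT control replicate 2 ended that call (adjusted p = 0.069 and 0.062). For Slc7a8 the difference with IFNg was 0.42 (adjusted p = 0.027), with a rise of 2.48 in KO and 2.06 in WT cells. Its call was lost, with adjusted p of at most 0.1, under median centring and on leaving out KO control replicate 3, WT control replicate 2 or 3, KO IFNg replicate 1 or 3, or WT IFNg replicate 1 or 2. The shares of all tested genes with such an interaction were 8.79% with LPS, 2.5% with IFNg and 3.61% with IL4.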

How the results depend on the processing

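No result reversed under any alternative where it was called. The fall of Hal in KO cells with LPS is the one call of a treatment response among the members that settings ended: -0.46 after median centring, -0.67 with library weights, and between -0.99 and -0.65 when 1 library was left out. The cause was not tested. The Hal difference between genotypes was 6.97 (control), 5.99 (LPS), 5.57 (IFNg) and 5.42 (IL4) at a pseudocount of 5, and with IFNg 6.90 by edgeR and 6.93 by DESeq2, with 6.05 to 6.75 when 1 library was left out. A larger pseudocount shrinks differences of low genes by construction. Library weights raised the number of called genes to 6125 for IL4 in WT cells, 7056 for IL4 in KO cells, 3063 between genotypes without treatment, 3512 with IFNg and 4035 with IL4, and to 2755, 1520 and 2338 for the genotype-by-treatment interactions with LPS, IFNg and IL4. Between genotypes edgeR called 2533 genes with IFNg and 2862 with IL4, and DESeq2 2588 and 2722. DESeq2 called 844 and 1169 for the interactions with IFNg and IL4. The corresponding limma counts were 3749, 4316, 1334, 1686 and 1731, and 1639, 466 and 672 for the interactions.

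Same-numbered libraries did not deviate together (84 pairs, r from -0.06 to 0.08, none above 0.1), and 12 of 24 libraries correlated best with their own number. A replicate block gave 9890, 8346 and 3651 calls for LPS, IFNg and IL4 in WT cells, 10575, 8500 and 4206 in KO cells, and 1257, 3984, 1607 and 1644 between genotypes in control, LPS, IFNg and IL4 cells, and it changed no member call. Depth limits Amdhd1, which rested on 8 reads in each of the KO LPS and KO IFNg groups, and leaves Uroc1 and Ftcd undetectable below the floors given.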
